A study of Rattus norvegicus with 6 samples.

Results

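The 30 genes described here make cholesterol, control how much of it a cell makes, or move and oxidize it. They were taken by gene symbol from the 44746 genes of the deposited gene table, and where several genes carried the same symbol, the protein-coding gene with the highest mean level was used. All 30 were found, and all 30 were among the 30668 genes that passed the filter on low values. By role they fall into 17 synthesis enzymes, 7 regulators and 6 transport and oxysterol genes. The UAC group consisted of condylar cartilage from female Sprague-Dawley rats given a unilateral anterior crossbite, a dental procedure that loads the temporomandibular joint abnormally and is used as a model of osteoarthritis of that joint. The CON group consisted of the same tissue from control rats. Rats of both groups were 6 weeks old at the start and were killed 8 weeks later, and each group has 3 libraries of total RNA without ribosomal RNA. No source used here says how many rats went into a library or that the libraries came from separate rats, so the p values measure the spread between these libraries, which may be technical.

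Total gene counts were 71524713 to 86523541 per UAC library and 80960444 to 85923949 per CON library. Chondrocyte markers were present in every library, with Col2a1, the main collagen of cartilage, at 1014 to 1972 FPKM in UAC and 1182 to 1909 FPKM in CON. FPKM is the number of fragments scaled to the length of the transcript and to the mapped fragments of the library, so it can be compared between genes. The tissue was mixed, because markers of neutrophils, erythroid cells, osteoclasts and skeletal muscle were also measured. UAC 1 stood apart from the other libraries. Its summed FPKM of the 9 chondrocyte markers was 1678, against 3373 in UAC 2 and 2492 in UAC 3, and the sum of its 9 skeletal muscle markers in the table was 279.9, against 36.3 and 31.0. CON 1 had the highest chondrocyte sum of its group, 3187, against 2125 in CON 2 and 2198 in CON 3.

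Cells build cholesterol from acetyl-CoA through mevalonate, farnesyl diphosphate, squalene and lanosterol. The SREBP transcription factors, encoded by Srebf1 and Srebf2, are held in the endoplasmic reticulum by Scap and the Insig proteins while sterols are plentiful, and are released to switch on the synthesis enzymes together when sterols are scarce. The LXR receptors, encoded by Nr1h2 and Nr1h3, respond to oxysterols and induce exporters such as Abca1 and Abcg1. In mouse cartilage, uptake of cholesterol and its conversion to oxysterols by Ch25h and Cyp7b1 have been linked to osteoarthritis.

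The promoters of the synthesis enzymes are known for short elements that act with the SREBPs, among them the CCAAT box bound by NF-Y and the GC box bound by Sp factors. RefSeq promoters of assembly GRCr8, covering 250 bases before and 50 bases after the start, were matched by symbol for 24 of the 30 genes, of which 14 are synthesis enzymes. They form 25 windows, since Srebf1 has 2. The 4 shown here include those of the most variable enzyme (Hmgcs1) and the enzyme with the highest mean FPKM (Cyp51). They also include those of a regulator that is itself an SREBP target (Insig1) and the regulator whose UAC values lay above its CON values in FPKM (Srebf2). Capitals mark CCAAT or its other strand, ATTGG. The windows are chr2:53382054-53382353 on the plus strand for Hmgcs1, chr4:30991443-30991742 on the plus strand for Cyp51, chr4:8057720-8058019 on the minus strand for Insig1 and chr7:115543057-115543356 on the plus strand for Srebf2.
Hmgcs1: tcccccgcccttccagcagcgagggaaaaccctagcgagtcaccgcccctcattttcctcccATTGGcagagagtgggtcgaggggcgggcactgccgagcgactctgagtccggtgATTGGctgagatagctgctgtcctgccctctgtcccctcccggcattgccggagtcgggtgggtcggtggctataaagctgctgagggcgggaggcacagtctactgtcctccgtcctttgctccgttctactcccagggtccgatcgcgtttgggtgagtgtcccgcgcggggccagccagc
Cyp51: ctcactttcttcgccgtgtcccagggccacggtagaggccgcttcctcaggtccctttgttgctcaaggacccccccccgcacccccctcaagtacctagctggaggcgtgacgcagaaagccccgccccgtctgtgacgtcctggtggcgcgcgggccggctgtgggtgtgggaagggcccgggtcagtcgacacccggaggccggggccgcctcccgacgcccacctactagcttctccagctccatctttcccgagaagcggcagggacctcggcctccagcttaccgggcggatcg
Insig1: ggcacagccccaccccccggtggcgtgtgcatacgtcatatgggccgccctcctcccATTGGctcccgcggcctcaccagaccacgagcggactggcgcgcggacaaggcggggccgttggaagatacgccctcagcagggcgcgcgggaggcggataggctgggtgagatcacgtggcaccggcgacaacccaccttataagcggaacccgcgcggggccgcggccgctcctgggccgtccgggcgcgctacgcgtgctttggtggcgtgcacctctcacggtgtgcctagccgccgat
Srebf2: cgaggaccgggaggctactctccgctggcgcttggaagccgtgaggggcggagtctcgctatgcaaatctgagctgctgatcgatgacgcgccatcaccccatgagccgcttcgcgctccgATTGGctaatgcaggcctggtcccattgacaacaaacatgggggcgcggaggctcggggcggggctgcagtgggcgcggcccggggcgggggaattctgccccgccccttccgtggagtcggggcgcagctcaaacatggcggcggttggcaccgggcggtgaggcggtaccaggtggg
Hmgcs1 holds the CCAAT box on its other strand at positions −188 and −133, counted from the start of the transcript, Insig1 at −193 and Srebf2 at −129, and Cyp51 holds none. CCAAT on either strand was found in 17 of the 25 windows, and in those of 12 of the 14 synthesis enzymes, against 37.5% of all 33469 rat promoters of the same length. The GC box GGGCGG on either strand was found in 20 of the 25 windows, and in those of 12 of the 14 enzymes, against 33.1% of all promoters. The E-box CACGTG was found in 4 of the 25, those of Abca1, Insig1, Sc5d and Scap, against 6.42% of all. The sterol regulatory element TCACNCCAC was found in 0 of the 25, against 1.12% of all, and its shorter form TCACNCCA, which the longer form contains and which was searched after the sequences had been seen, in 2, Msmo1 and Srebf2, against 3.89%. These matches describe letters in a window and are not measured binding.

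No sterol gene differed between UAC and CON at an adjusted p under 0.05. The lowest adjusted p among the 30 was 0.547 (edgeR quasi-likelihood test, Benjamini-Hochberg over all tested genes), and 0 of the 30 passed in DESeq2 or limma, against 6 of all tested genes, or 0.0196%, in edgeR. At an unadjusted edgeR p under 0.05, 0 of the 30 were higher in UAC, where 4.69% of all tested genes were, and 1, Insig2, was lower, where 4.39% of all tested genes were. In DESeq2 and limma, 0 were higher and 0 lower. A total of 8 genes had a positive and 22 a negative log2 fold change, with a median of −0.07 against 0.00 over all tested genes, and in limma these numbers were 12 and 18. Positive and negative values numbered 17 and 13 without UAC 1 and 15 and 15 without CON 1, so the mostly negative direction rests on these libraries. None of the 30 passed the thresholds the study used, an unadjusted p under 0.05 and a log2 fold change beyond 1 in either direction. The 95% interval of the log2 fold change lay inside 1 in either direction for 28 of the 30, and reached beyond it for Hmgcs1 and Ch25h.

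**Figure D1:**
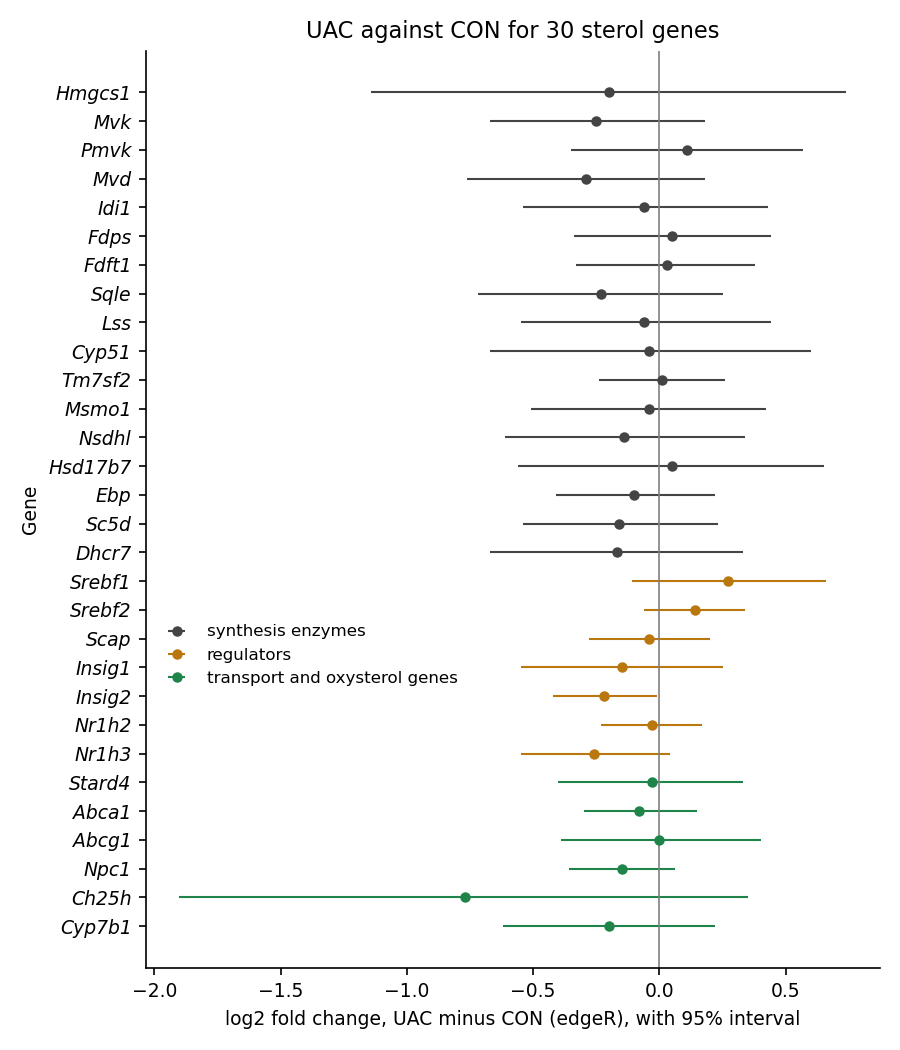
Log2 fold change, UAC minus CON, of the 30 sterol genes from the edgeR fit (points) with 95% intervals (lines), coloured by role. The intervals of 29 genes include 0, that of Insig2 ends at −0.01, and those of Hmgcs1 and Ch25h are the widest.

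Among the synthesis enzymes, the groups overlapped in FPKM for all 17, as they did for 25852 of all 30668 tested genes. The wider of the FPKM ranges within a group exceeded the difference between the group means for all 17. This was so for 29 of the 30 genes, Nr1h3 being the exception. The share of all tested genes for which it held is not given here, so it does not set these genes apart. Of the 17, 5 had a positive and 12 a negative log2 fold change, between −0.29 and 0.11, with a median of −0.06, which was 0.04 without UAC 1 and 0.06 without CON 1. The lowest unadjusted edgeR p was 0.190. Hmgcs1, the cytosolic synthase that makes HMG-CoA, shows the pattern most plainly. It had 9.09, 16.1 and 15.5 FPKM in UAC 1, 2 and 3, against 24.6, 10.7 and 10.3 FPKM in CON 1, 2 and 3. UAC 1 held the lowest and CON 1 the highest value, 2.71 times apart, and the remaining 2 UAC libraries lay above the remaining 2 CON libraries. Its log2 fold change was −0.20 (SE 0.39, 95% interval −1.14 to 0.74, adjusted p = 0.917), from levels of 13.6 ± 3.88 FPKM in UAC and 15.2 ± 8.14 FPKM in CON (SD, n = 3 each). It was 0.04 without UAC 1 and 0.33 without CON 1. The file places Hmgcs1 on the plus strand of chromosome 2 from 52427418 to 52445055, in a genome build that is not given in the sources used here.

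Cyp51, the lanosterol demethylase, had the highest mean FPKM of all 30 genes. Its levels were 11.2, 20.8 and 17.9 FPKM in UAC, against 20.9, 14.1 and 15.0 FPKM in CON. UAC 1 was again lowest and CON 1 highest, with UAC 2 beside it. The log2 fold change was −0.04 (SE 0.27, 95% interval −0.67 to 0.60, adjusted p = 0.980), and was 0.20 without UAC 1 and 0.16 without CON 1.

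The enzymes that turn mevalonate into isoprenoid units were less uniform. Mvk, mevalonate kinase, had 2.12, 2.94 and 2.28 FPKM in UAC, against 2.81, 2.56 and 3.12 FPKM in CON, with a log2 fold change of −0.25 (SE 0.18, adjusted p = 0.712). Mvd, the decarboxylase that ends this stretch, had 3.31, 3.06 and 2.90 FPKM in UAC, against 4.69, 2.77 and 3.53 FPKM in CON, with a log2 fold change of −0.29 (SE 0.20, adjusted p = 0.694) that was −0.07 without CON 1. In both genes the groups overlapped, and the low Mvk value was that of UAC 1 while the high Mvd value was that of CON 1. Pmvk, phosphomevalonate kinase, ran the other way, with its lowest value in CON 1 and a log2 fold change of 0.11 (SE 0.19).

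The other 13 enzymes overlapped as well. Idi1, the isomerase of isopentenyl diphosphate, spanned 5.23 to 8.21 FPKM in UAC and 5.52 to 7.94 FPKM in CON. Fdps, farnesyl diphosphate synthase, spanned 8.76 to 12.7 FPKM in UAC and 10.5 to 10.8 FPKM in CON, with UAC 1 the low library and UAC 2 and UAC 3 both at 12.7. Fdft1, which joins farnesyl units into squalene, Sqle, the squalene epoxidase, and Lss, which closes the ring to lanosterol, all had their highest scaled count in CON 1. Sqle reached 9.30 FPKM there, against 6.03 and 7.04 FPKM in CON 2 and CON 3.

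After lanosterol the sequence is finished by Tm7sf2, Msmo1, Nsdhl, Hsd17b7, Ebp, Sc5d and Dhcr7, which remove methyl groups and shift or reduce double bonds. Their log2 fold changes were small, between −0.17 (SE 0.21) for Dhcr7 and 0.05 (SE 0.26) for Hsd17b7. Msmo1, the sterol methyl oxidase, had 8.03, 10.8 and 10.2 FPKM in UAC, against 12.2, 8.25 and 8.82 FPKM in CON, again with UAC 1 lowest and CON 1 highest. Ebp and Tm7sf2 were the flattest, with all 6 libraries within 6.57 to 8.87 FPKM and 3.64 to 4.42 FPKM. The Tm7sf2 values belong to an assembled gene that also holds Vps51 and Mir6315, so they are those of the merged locus.

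**Figure D2:**
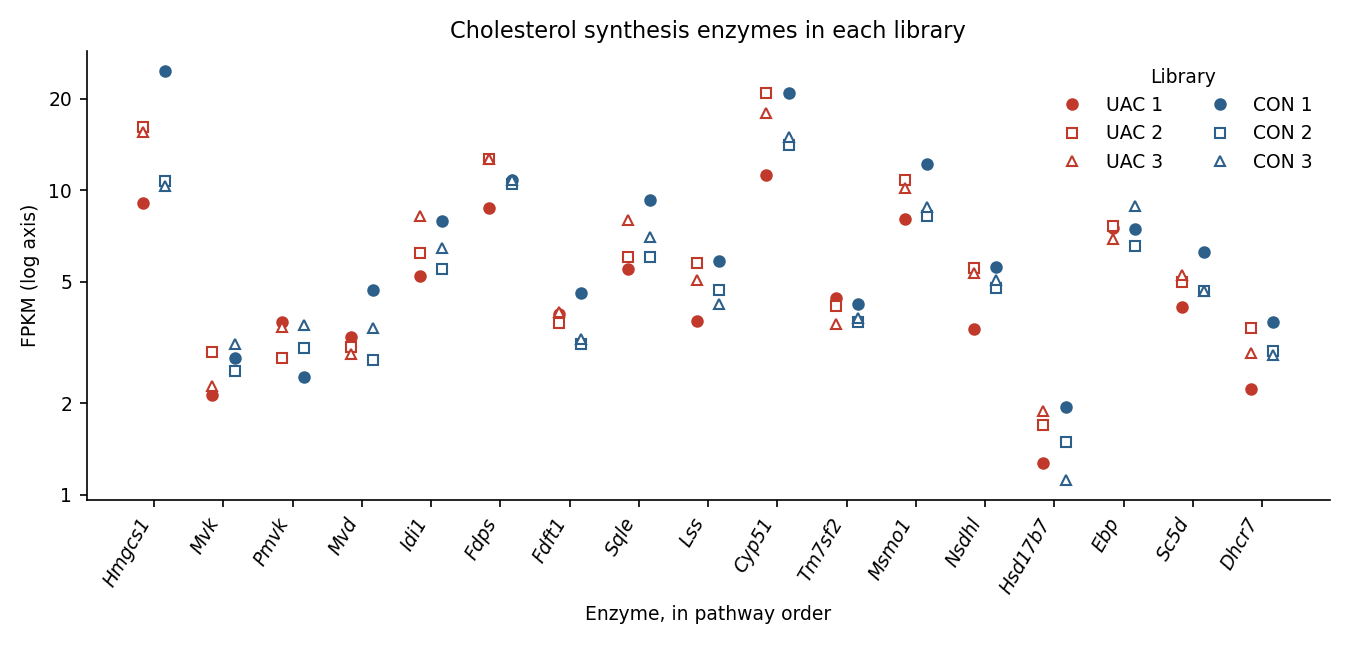
FPKM (log axis) of the 17 synthesis enzymes in pathway order, each point a library, with UAC in red and CON in blue and replicate 1 of each group filled. For Hmgcs1 the filled UAC 1 point is at 9.09 and the filled CON 1 point at 24.6, and the same order of the 2 filled points recurs in most enzymes but is turned round in Pmvk, Tm7sf2 and Ebp.

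The enzymes varied together by library more than by group. On counts scaled for library size (TMM factors), UAC 1 was the lowest of the 6 libraries for 11 of the 17 enzymes and for 19 of the 30 sterol genes, against 21.3% of all tested genes. CON 1 was the highest for 12 of the 17 and for 17 of the 30, against 14.3% of all tested genes. UAC 1 was at most 0.8 times the mean of UAC 2 and UAC 3 for 12 of the 17 and for 16 of the 30, against 21.7% of all tested genes. CON 1 was at least 1.25 times the mean of CON 2 and CON 3 for 11 of the 17 and for 13 of the 30, against 16.3% of all tested genes. In the median enzyme UAC 1 was 0.725 times the mean of its group's other libraries and CON 1 was 1.32 times, while over all tested genes the medians were 0.991 for UAC 1 and 0.992 for CON 1. The enzymes not lowest in UAC 1 were Mvd, Tm7sf2 and Ebp, lowest in UAC 3, Fdft1 and Hsd17b7, lowest in CON 3, and Pmvk, lowest in CON 1. Those not highest in CON 1 were Fdps, highest in UAC 2, Idi1, highest in UAC 3, and Mvk, Pmvk and Ebp, highest in CON 3.

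UAC 1 was the lowest library for 5 of the 7 regulators and for 3 of the 6 transport and oxysterol genes, against 21.3% of all tested genes. It was at most 0.8 times the mean of UAC 2 and UAC 3 for 2 of the 7 and 2 of the 6, against 21.7%. The median of this ratio was 0.864 for the regulators and 1.03 for the transport and oxysterol genes, so the latter were not low in UAC 1 as a list. CON 1 was the highest for 3 of the 7 and for 2 of the 6. Whether these shares differ from those of the enzymes was not tested. CON 1 was at least 1.25 times the mean of its group's other libraries for 2 of these 13 genes, against 16.3% of all tested genes. These were Insig1 and Stard4, at 1.34 and 1.33 times. Both are known targets of the SREBPs, Insig1 encoding a sensor that holds back Scap and Stard4 a carrier of cholesterol between membranes. The SREBP genes themselves, Srebf1 and Srebf2, were at 1.11 and 1.05 times. The part of the SREBPs in these values was not tested.

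**Figure D3:**
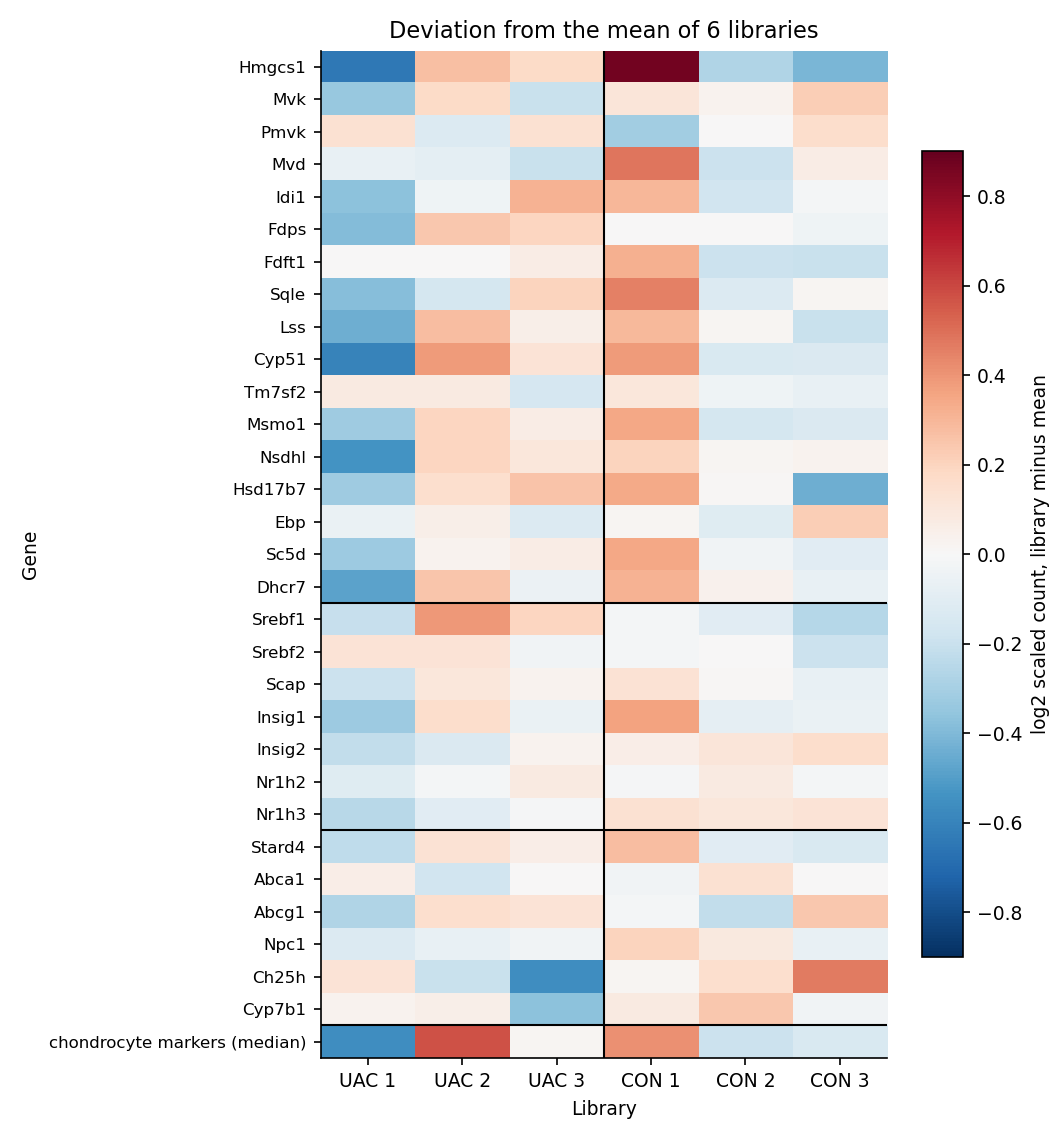
Deviation of each library from the mean of the 6 libraries on log2 scaled counts (colour) for the 30 sterol genes and, in the bottom row, the median over the 9 chondrocyte markers. UAC 1 is blue and CON 1 red over most enzymes in the top block and in the bottom row, with medians of −0.34 and 0.31 for the enzymes and −0.56 and 0.41 for the markers.

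The chondrocyte markers had a like order of libraries. The median deviation of the 17 enzymes from the mean of all libraries, on log2 scaled counts, was −0.34, 0.15 and 0.07 in UAC 1, 2 and 3 and 0.31, −0.04 and −0.07 in CON 1, 2 and 3. The median of the 9 chondrocyte markers was −0.56, 0.57 and 0.02 in UAC and 0.41, −0.19 and −0.14 in CON, and UAC 1 was the lowest library for 9 of the 9. The summed FPKM of the enzymes was 87.6, 119 and 116 in UAC, against 135, 95.6 and 103 in CON. UAC 1 and CON 1 are the ends of the enzyme order, while UAC 2 and not CON 1 is the top of the chondrocyte marker order. A like order was not particular to chondrocyte markers. The median of the 5 tested Schwann and myelin markers was −0.20, 0.04 and 0.05 in UAC and 0.21, 0.07 and −0.18 in CON. UAC 1 was the lowest library for 3 of these 5 and CON 1 the highest for 2. In bulk tissue, fewer cells of a type and less RNA per cell cannot be told apart.

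Other markers moved with UAC 1 too. The summed FPKM of the neutrophil markers was 3758, 2106 and 2613 in UAC, against 1819, 1937 and 2111 in CON, and that of the skeletal muscle markers was 279.9, 36.3 and 31.0 in UAC, against 109, 179 and 82.4 in CON. CON 1 stood out in neither sum, being lowest in the neutrophil sum and between the other CON libraries in the muscle sum. The neutrophil markers were divided, however. Of the 6 tested, Mpo and Elane were at 1.41 and 1.57 times the mean of CON 2 and CON 3 in CON 1. The rest were at 0.640 to 0.923 times. The summed FPKM of the proliferation markers was 81.3, 67.1 and 68.6 in UAC, against 74.6, 54.9 and 80.3 in CON, which does not follow the order of the enzymes. The part of the tissue mix in the enzyme levels was not tested.

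Without UAC 1, the numbers of sterol genes higher and lower at an unadjusted edgeR p under 0.05 were 2 and 1 (Fdps and Srebf1, and Ch25h). Of all tested genes, 4.67% were then higher and 5.60% lower. Without CON 1 the numbers were 1 and 0 (Fdft1), against 3.57% and 2.87% of all tested genes. Without both libraries, 6 were higher (Hmgcs1, Fdps, Fdft1, Cyp51, Msmo1 and Srebf1) against 3.66% of all tested genes, 0 were lower against 4.16%, and 0 passed the adjusted threshold, with a lowest adjusted p of 0.508 in edgeR. A total of 13 of the 17 enzymes then had a positive log2 fold change, with a median of 0.13. Hmgcs1 then had a log2 fold change of 0.57 (SE 0.10), against −0.20 with all libraries. This setting was chosen after the data had been seen, partly on the values of these genes, and taking out the low UAC library and the high CON library raises the fold changes by construction, so it shows how far 2 libraries decide the direction and is not support for a difference.

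Of the regulators, the 2 SREBP genes had positive log2 fold changes and the other 5 had negative ones in edgeR, all between −0.26 and 0.27, though in limma Scap was at 0.00 and Nr1h2 at 0.01. Srebf2, the main SREBP of cholesterol synthesis, had 11.7, 11.0 and 10.2 FPKM in UAC, against 10.0, 9.91 and 9.14 FPKM in CON. Its 3 UAC values lay above its 3 CON values, narrowly, which in FPKM was so for 1 of the 30 genes and for 9.84% of all tested genes. On counts scaled by TMM the groups of Srebf2 overlapped, with UAC 3 at −0.03 and CON 2 at 0.00 relative to the mean of all libraries on the log2 scale. The log2 fold change was 0.14 (SE 0.08, 95% interval −0.06 to 0.34, adjusted p = 0.660), from 11.0 ± 0.743 FPKM in UAC and 9.69 ± 0.477 FPKM in CON (SD, n = 3 each).

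Srebf2 lies on the plus strand of chromosome 7 from 123381077 to 123438603 in the file's coordinates. An assembled transcript of 2 exons is listed on the minus strand inside it, from 123418929 to 123431100. Its gene had 2.51, 2.13 and 2.24 FPKM in UAC, against 2.0, 1.48 and 1.89 FPKM in CON, so all UAC values were above all CON values here as well (log2 fold change 0.31, SE 0.15, adjusted p = 0.572). Whether strand was used in the counting is not stated, so reads of this transcript and of Srebf2 cannot be told apart.

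Srebf1, whose protein is best known for switching on fatty acid synthesis, had 4.99, 7.13 and 6.38 FPKM in UAC, against 5.35, 4.92 and 4.63 FPKM in CON. UAC 2 and UAC 3 were above every CON library, and UAC 1 was inside the CON range. The log2 fold change was 0.27 (SE 0.16, 95% interval −0.11 to 0.66, adjusted p = 0.646). It was 0.43 (SE 0.11, adjusted p = 0.386) without UAC 1 and 0.14 (SE 0.15) without UAC 2. The summed FPKM of adipocyte markers, cells in which Srebf1 is abundant, was 14.9, 6.20 and 7.55 in UAC, against 4.65, 4.18 and 6.12 in CON. Fabp4, whose groups overlapped, made up 12.2 of the 14.9 in UAC 1. Of the 5 tested adipocyte markers, 3 had every UAC library above every CON library, against 9.84% of all tested genes. They were Adipoq (0.892 to 1.56 FPKM in UAC, 0.204 to 0.290 FPKM in CON), Plin1 (0.294 to 0.581 and 0.107 to 0.129 FPKM) and Cidec (0.245 to 0.304 and 0.108 to 0.184 FPKM). Cidea had the lower mean in UAC, 0.224 ± 0.212 FPKM against 0.316 ± 0.274 FPKM in CON (SD, n = 3 each). Lep was too low to be tested. The part of adipocytes in the Srebf1 level was not tested.

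Of the proteins that keep the SREBPs in the endoplasmic reticulum, Insig2, which binds Scap, had 3.56, 3.56 and 4.11 FPKM in UAC, against 4.08, 4.11 and 4.48 FPKM in CON. In FPKM the groups met only where UAC 3 lay above CON 1, and in scaled counts every UAC library was below every CON library. The log2 fold change was −0.22 (SE 0.09, 95% interval −0.42 to −0.01, adjusted p = 0.547), with the lowest p of the 30 genes. The unadjusted edgeR p was 0.0452 with all libraries, was between 0.0135 and 0.123 with each left out in turn, and was then under 0.05 only without UAC 3. Insig1 spanned 6.29 to 8.34 FPKM in UAC and 6.86 to 9.58 FPKM in CON, with CON 1 highest, and Scap, which escorts the SREBPs to the Golgi, spanned 8.34 to 9.54 FPKM in UAC and 8.70 to 9.79 FPKM in CON.

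The LXR genes differed in level and in spread. Nr1h2, the LXR found in most tissues, was near constant, with 12.7, 12.7 and 14.1 FPKM in UAC, against 12.8, 13.3 and 13 FPKM in CON, and a log2 fold change of −0.03 (SE 0.08) that turned to 0.01 in limma. Nr1h3, the LXR of liver, fat and macrophages, was lower in abundance and had 2.97, 3.12 and 3.41 FPKM in UAC, against 3.74, 3.52 and 3.77 FPKM in CON. The 3 UAC values lay below the 3 CON values, in FPKM and in scaled counts, which in FPKM was so for 1 of the 30 genes and for 5.87% of all tested genes. The log2 fold change was −0.26 (SE 0.12, 95% interval −0.55 to 0.04, adjusted p = 0.580), from 3.16 ± 0.227 FPKM in UAC and 3.68 ± 0.140 FPKM in CON (SD, n = 3 each), so it did not pass the test.

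Macrophage markers, which belong to cells known for Nr1h3, did not share a direction. Cd68 had 76.0 to 96.5 FPKM in UAC against 99.6 to 116 FPKM in CON, and Csf1r had 38.8 to 40.9 FPKM in UAC against 42.9 to 47.4 FPKM in CON. C1qc and Aif1 stood the other way, with Aif1 at 2.88 to 3.35 FPKM in UAC against 2.25 to 2.38 FPKM in CON. The summed FPKM of the 9 macrophage markers was 189 to 212 in UAC and 209 to 240.2 in CON. The part of these cells in the Nr1h3 level was not tested.

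**Figure D4:**
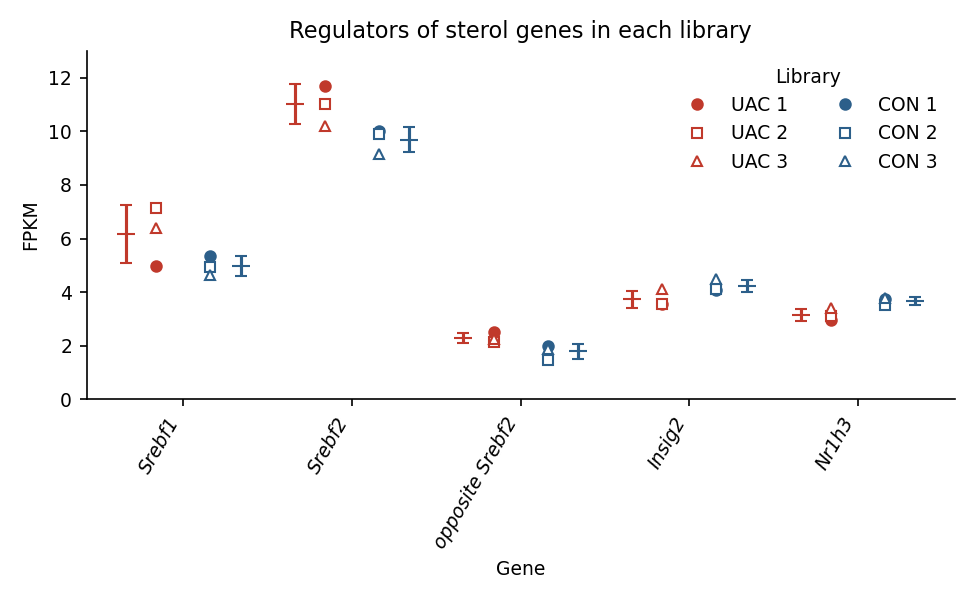
FPKM of Srebf1, Srebf2, the assembled gene on the strand opposite Srebf2, Insig2 and Nr1h3, with UAC in red and CON in blue, each point a library and the bars the mean ± SD of 3 libraries. The groups are apart for Srebf2 and its opposite-strand gene, with UAC above, and for Nr1h3, with UAC below, and overlap for Srebf1 and Insig2.

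The 6 transport and oxysterol genes overlapped between groups, with a median log2 fold change of −0.11. Abca1, which exports cholesterol to lipid-poor apolipoprotein, was the most abundant of them, with 12.9, 10.3 and 11.9 FPKM in UAC, against 11.4, 12.4 and 11.9 FPKM in CON (log2 fold change −0.08, SE 0.09, adjusted p = 0.850). Abcg1, which exports cholesterol to larger lipoproteins and is an LXR target like Abca1, spanned 4.26 to 5.45 FPKM in UAC and 4.05 to 5.90 FPKM in CON, and its log2 fold change was 0.00 (95% interval −0.39 to 0.40). For neither of these LXR targets were the groups apart as they were for Nr1h3, and the part of Nr1h3 in their levels was not tested.

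Npc1, which moves cholesterol out of lysosomes, had 7.36, 7.17 and 7.55 FPKM in UAC, against 8.67, 7.77 and 7.35 FPKM in CON (log2 fold change −0.15, SE 0.09, adjusted p = 0.638), and −0.08 without CON 1. CON 3 lay inside the UAC range and the other 2 CON libraries above it. These values belong to an assembled gene that also holds the pseudogene AABR07031184. Stard4 spanned 4.44 to 5.37 FPKM in UAC and 4.46 to 6.01 FPKM in CON.

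The oxysterol enzymes were low. Ch25h, which oxidizes cholesterol on its side chain, had the lowest mean FPKM of the 30 genes, at 0.478, 0.281 and 0.148 FPKM in UAC, against 0.391, 0.445 and 0.671 FPKM in CON, or 50, 36 and 16 counts in UAC against 49, 53 and 83 counts in CON. UAC 2 and UAC 3 were below every CON library and UAC 1 was within the CON range. Its log2 fold change was the largest in size of the 30 in edgeR, −0.77, with the widest interval, −1.90 to 0.35 (SE 0.47, adjusted p = 0.657), and was −0.21 in limma with a pseudocount of 1, smaller in size than the 0.25 of Srebf1 there. The edgeR interval holds values beyond −1 as well as values above 0. Without UAC 1 the log2 fold change was −1.20 (SE 0.48), and without UAC 3 it was −0.46 (SE 0.41). The other 29 genes had 250 to 18056 counts per library. Cyp7b1, which hydroxylates oxysterols, had 1.86, 1.76 and 1.31 FPKM in UAC, against 1.81, 1.99 and 1.70 FPKM in CON (log2 fold change −0.20, SE 0.18, adjusted p = 0.766).

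Other transcripts of the same loci were scarce or did not separate. The table holds 12 further assembled genes that carry a symbol of 6 of the 30 genes, 7 of them in Cyp7b1, and the gene opposite Srebf2 was the only one whose groups were apart. The deposited lncRNA table lists 10 of these as lncRNA transcripts. The circRNA table lists 10 circRNAs from 5 sterol genes, 6 of them from Abca1, with 13 junction reads in all, 8 in UAC and 5 in CON, and at most 2 for any circRNA. At that depth no difference was detectable.

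In 36 other sterol genes, chosen for their role with earlier results known, 33 were tested, 0 were higher and 3 were lower in UAC at an unadjusted edgeR p under 0.05, where 4.69% of all tested genes were higher and 4.39% lower, and 0 passed after adjustment. The median log2 fold change was −0.05. The 3 are Stard3, Npc2 and Lcat. Stard3, a cholesterol-binding protein of late endosomes, had 13.7, 12.5 and 12.6 FPKM in UAC, against 15.2, 14.3 and 15.2 FPKM in CON (log2 fold change −0.25, SE 0.07, adjusted p = 0.466). Npc2, the lysosomal partner of Npc1, had 50.8, 49.5 and 48.8 FPKM in UAC, against 52.2, 53.2 and 58.1 FPKM in CON (log2 fold change −0.18, SE 0.07, adjusted p = 0.534). Lcat, which esterifies cholesterol in lipoproteins, had 17.2, 17.0 and 14.3 FPKM in UAC, against 19.1, 18.1 and 18.8 FPKM in CON (log2 fold change −0.25, SE 0.09, adjusted p = 0.524). The Lcat values belong to an assembled gene that also holds Slc12a4, so they are those of the merged locus. In these 3 genes every UAC library was below every CON library, which was so for 5.87% of all tested genes. They were picked by their p, which favours groups that are apart, so the share is not support for a difference.

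Soat1, which esterifies cholesterol for storage, was the only gene of that list with all UAC libraries above all CON libraries in FPKM, against 9.84% of all tested genes. On scaled counts its groups overlapped, with UAC 3 at −0.03 and CON 1 at −0.01 relative to the mean of all libraries on the log2 scale. It had 16.3, 16.5 and 14.3 FPKM in UAC, against 14.1, 11.8 and 13.8 FPKM in CON (log2 fold change 0.20, SE 0.10, adjusted p = 0.585). Among osteoclast markers, of cells rich in lysosomes, Acp5 was at 677 to 908 FPKM in UAC against 1019 to 1205 FPKM in CON, and Ctsk was at 961 to 1099 FPKM in UAC against 1136 to 1380.2 FPKM in CON. Of the 5 osteoclast markers, 3 had every UAC library below every CON library, against 5.87% of all tested genes, while Dcstamp had 6.15 ± 0.701 FPKM in UAC and 4.74 ± 3.31 FPKM in CON (SD, n = 3 each). The summed FPKM of the list was 1884 to 2300.3 in UAC and 2505 to 2917 in CON. Their part in the lysosomal genes was not tested.

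Of 14 lipogenic genes known as targets of the Srebf1 product, 0 were higher and 0 lower at an unadjusted edgeR p under 0.05, where 4.69% and 4.39% of all tested genes were, with a median log2 fold change of 0.06. Scd, which desaturates fatty acids, had 6.37, 20.1 and 13.1 FPKM in UAC, against 8.44, 6.30 and 6.48 FPKM in CON (log2 fold change 0.87, SE 0.40, 95% interval −0.08 to 1.82, adjusted p = 0.569). UAC 2 and UAC 3 were above every CON library and UAC 1 inside the CON range, the same libraries as for Srebf1. Elovl5, an elongase, spanned 22.1 to 25.5 FPKM in UAC and 20.9 to 21.8 FPKM in CON. Mid1ip1, an activator of acetyl-CoA carboxylase, spanned 7.69 to 8.73 FPKM in UAC and 6.69 to 7.64 FPKM in CON. On log2 scaled counts the groups of both met or overlapped, with UAC 3 at −0.05 and −0.01 against CON 2 at −0.05 and 0.01. Acacb, a carboxylase of fat metabolism, overlapped in FPKM.

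Of 9 genes on other branches of the mevalonate pathway, 0 were higher and 2 were lower at an unadjusted edgeR p under 0.05, where 4.69% of all tested genes were higher and 4.39% lower. These are the subunits of farnesyltransferase, which attaches the farnesyl group to proteins. Fntb, its own subunit, had 4.58, 4.35 and 5.43 FPKM in UAC, against 6.58, 6.22 and 5.55 FPKM in CON (log2 fold change −0.40, SE 0.13, adjusted p = 0.50). Fnta, which this enzyme shares with its geranylgeranyl counterpart, had 5.33, 5.69 and 5.17 FPKM in UAC, against 5.91, 6.11 and 6.37 FPKM in CON (log2 fold change −0.23, SE 0.09, adjusted p = 0.536). Both genes had every UAC library below every CON library, as 5.87% of all tested genes did, and neither passed after adjustment. As they were picked by their p, this share is not support for a difference. Pggt1b, the own subunit of that counterpart, spanned 5.86 to 6.48 FPKM in UAC and 5.37 to 5.69 FPKM in CON, with a log2 fold change of 0.10 (SE 0.07). On log2 scaled counts its groups overlapped, with UAC 3 at −0.01 and CON 2 at 0.00. Pdss1, of ubiquinone synthesis, had a log2 fold change of 0.19 (SE 0.12).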

How the data were processed

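The 6 libraries of condylar cartilage RNA (3 UAC, 3 CON) were compared, UAC minus CON. The authors removed adaptors with cutadapt (1.9 in the submitters' processing notes) and inspected quality with FastQC. Hisat2 and Bowtie2 did the mapping, and StringTie the assembly. Genome build, circRNA caller and mapper versions are not given in these sources. The deposited gene table holds whole-number counts and FPKM. The deposited lncRNA table holds FPKM, with absent transcripts at 0.0001, and read coverage, which was not used. The deposited circRNA table holds back-splice read counts, used here, and a depth-scaled score named SRPBM that was not used.

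Genes under a mean FPKM of 0.1 were left out, and counts of the other 30668 went into edgeR 4.0.16 (TMM, quasi-likelihood test, no covariate), with Benjamini-Hochberg adjustment and a threshold of 0.05. The steps were tested on simulated data. Standard errors come from the coefficient and the F statistic. DESeq2 1.42.0, limma 3.58.1 on log2 of FPKM plus 0.1 or 1, other filters and scalings, a robust fit, each library left out, and pairing by replicate number as a block served as alternatives. Scaled counts are counts divided by the library total times its TMM factor. Precision is limited by 3 libraries per group.

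The sterol genes and all lists were chosen with earlier results of these data known. Genes given with all library values are those with groups apart or an unadjusted p under 0.05, and per role the 2 with the highest mean FPKM and the 2 with the largest absolute log2 fold change. Of other lists, up to 4 genes with the smallest p are named. Msmo1 was added after its values were seen. No list was tested as a set.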

Additional observations from a re-analysis of the deposited data

How the results depend on the processing

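The count of sterol genes at an adjusted p under 0.05 was 0 in every alternative run. The added setting left out both UAC 1 and CON 1 and was chosen after seeing the data. In it 6 genes were higher at an unadjusted edgeR p under 0.05 and 0 were lower, against 3.66% and 4.16% of all tested genes. The median log2 fold change of the regulators was then 0.10, and Hmgcs1, Cyp51 and Nr1h2 stood at 0.57, 0.39 and 0.00. The number lower was 0 in DESeq2 and in limma with a pseudocount of 0.1 or 1. The median of the transport and oxysterol genes was −0.07 with a mean FPKM of at least 1 and −0.06 in limma with a pseudocount of 1, and Nr1h2 was 0.01 in limma with either pseudocount. With each library left out in turn, the number higher was 0 to 2 and the number lower 0 to 1. Of all tested genes, 3.07% to 4.78% were then higher and 2.60% to 5.60% lower. The median log2 fold changes then ranged over −0.20 to 0.06 for the synthesis enzymes, −0.10 to 0.02 for the regulators and −0.17 to −0.08 for the transport and oxysterol genes, and single values over −0.43 to 0.33 for Hmgcs1, −0.25 to 0.20 for Cyp51 and −0.08 to 0.02 for Nr1h2. Among these, Hmgcs1 was positive only without UAC 1 (0.04) or CON 1 (0.33), and Cyp51 likewise (0.20 and 0.16). The cause of these changes was not tested. Mvk was lower at an unadjusted p under 0.05 only without UAC 2, and Npc1 only without CON 3. Ch25h ranged over −1.20 to −0.46 and had 16 to 83 counts per library.

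A replicate block, in which UAC and CON libraries of the same number were taken as pairs, gave 0 sterol genes at an adjusted p under 0.05, 0 higher at an unadjusted p under 0.05 and 1 lower, and medians of −0.07, −0.04 and −0.11 for the enzymes, the regulators and the transport and oxysterol genes. Deviations from the group means correlated across genes at −0.02, −0.012 and −0.031 for the same-numbered libraries. For libraries of different number the correlations were between −0.014 and 0.034. Being taken over all genes, they cannot show whether same-numbered libraries were linked in a part of the genes.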
